A study of Mus musculus with 24 samples.

Results

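Every round of cell division requires the genome to be copied once, in S phase. The genes described here encode the machinery of that copying. In G1 the MCM2-7 helicase is loaded onto replication origins by CDC6 and CDT1, a step called licensing, and CDC45 and the GINS complex then switch the helicase on. DNA polymerases, primase, the sliding clamp PCNA and its RFC loader synthesise the strands, and FEN1 and LIG1 join the lagging strand. Ribonucleotide reductase and other enzymes supply the deoxynucleotides, and E2F transcription factors and cyclin E set the whole programme in motion at the G1/S boundary. Bone marrow cultures grown with GM-CSF contain dividing precursors beside differentiated dendritic cells.

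A list of 38 DNA replication and S-phase genes was followed in the deposited raw count table of 54309 gene models, and all 38 were found by gene symbol. The list was drawn up by function and holds 13 licensing and helicase genes, 13 polymerase, clamp and lagging-strand genes, 5 nucleotide supply genes, 3 chromatin genes and 4 G1/S drivers. The cells were mouse dendritic cells derived from bone marrow (BMDC), obtained by culturing bulk marrow for 7 days in GM-CSF. Donor mice were wild type (WT) or carried BRAF-V600E, a mutation found in Langerhans cell histiocytosis, and the labels call the latter LCH or Mutant. In each genotype, cultures either received a BRAF-V600E inhibitor for 1 h or did not. Every culture, controls included, was then stimulated with LPS for 3 h, at 100 ug per mL per the labels, and pulsed with cycloheximide at 100 ug per mL. Total RNA came from an aliquot of the cells. For polysome RNA, 500 uL of the gradient fractions with more than 2 polysomes were pooled. Genotype, inhibitor and fraction make 8 groups of 3 libraries. The column names, and none of the labels, add a letter to each library, which is A, BD or C in WT and E, F or G in LCH, with GH in place of G in polysome RNA. These letters are taken here to mark pools of cells, and G and GH to be the same pool. The labels used here do not give the promoter or Cre that drives the mutation, the age of the mice or the number of mice in a pool, and the inhibitor is not named. The labels number biological replicates without naming animals, so p-values measure the spread between these samples.

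Total RNA libraries held 19046600 to 39792200 counts. LCH polysome libraries held 9188920 to 30455100 counts, and 4 rRNA-type genes took 18 to 65.1% of them. In WT polysome libraries, with 2017100 to 4090600 counts, these 4 genes took 71.4 to 99.2%. The LCH libraries of pool G showed counts for 27571 to 38431 gene models, against 11077 to 18406 in the other LCH libraries. All 15 dendritic cell markers listed had counts in every total RNA group. Braf itself did not pass the test in total RNA (log2 fold change of LCH against WT -0.31, SE 0.14, adjusted p = 0.12, edgeR), and gene counts cannot show the V600E change.

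In total RNA without inhibitor, replication genes stood higher in LCH than in WT cells. Of the 38 genes, 17 rose and 0 fell at an adjusted p under 0.05 in edgeR's quasi-likelihood test, where 14.8% of the 13375 genes tested rose and 14.9% fell. The median log2 fold change was 0.43 over the 38 genes and 0.02 over all genes tested. The rises were modest, from 0.42 to 1.07 on the log2 scale. For 23 of the 38 genes all LCH libraries lay above all WT libraries and for 0 all lay below, against 22.8% and 22.1% of all genes tested. By role, 7 of 13 licensing and helicase genes rose, 5 of 13 polymerase and clamp genes, 3 of 5 nucleotide supply genes, 1 of 3 chromatin genes and 1 of 4 G1/S drivers. In bulk samples, more cells in S phase and more RNA per cell cannot be told apart.

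**Figure D1:**
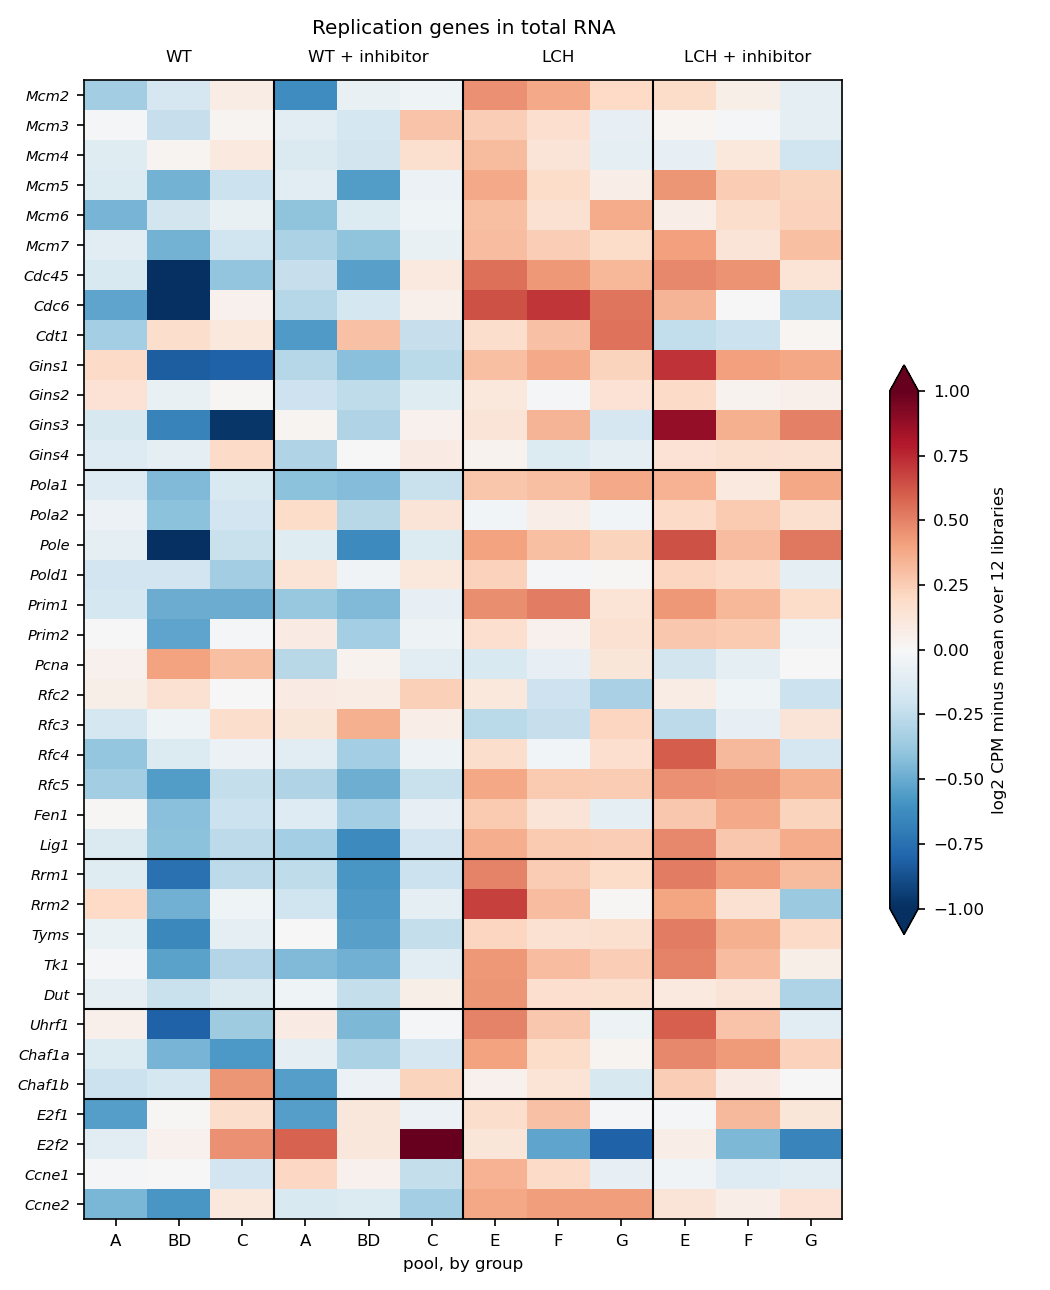
Level of the 38 genes in the 12 total RNA libraries. Each cell is the log2 CPM (counts per library scaled to a common total by TMM) of a gene minus its mean over the 12 libraries; colours are capped at -1 and 1. Rows are grouped, from the top, as licensing and helicase, polymerases and clamp, nucleotide supply, chromatin and G1/S drivers; columns are pools. Most rows are red in the LCH libraries and blue in the WT libraries, with Pcna, Rfc2, Rfc3 and E2f2 among the exceptions.

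The licensing group carried the largest fold change of the list. Cdc6 (ENSMUSG00000017499.16, on chromosome 11), the loader that brings the MCM helicase to origins, was at 1.74, 1.21 and 2.57 CPM in the WT pools and at 3.89, 4.10 and 3.62 CPM in the LCH pools. Every LCH library exceeded every WT library, and the log2 rise of Cdc6 was 1.07 (SE 0.27, adjusted p = 0.011, edgeR). Cdc45, which activates the loaded helicase, was at 8.14, 4.09 and 6.88 CPM in WT and at 13.3, 12.2 and 11.4 CPM in LCH. Its log2 rise was 0.95 (SE 0.23, adjusted p = 0.010, edgeR), and pool BD was the lowest WT library. Among the helicase subunits, Mcm6 was at 28.4, 34.5 and 37.3 CPM in WT and at 48.3, 43.4 and 50.7 CPM in LCH, without overlap, a log2 rise of 0.51 (SE 0.12, adjusted p = 0.0093, edgeR). Mcm7 rose by 0.50, Mcm5 by 0.48 and Mcm2 by 0.48, whereas Mcm3 (0.18, adjusted p = 0.32) and Mcm4 (0.12, adjusted p = 0.53) did not pass. The 6 subunits form 1 ring, and 4 of their 6 genes passed the test. Of the GINS genes, Gins3 rose by 0.67. Gins1 had a log2 fold change of 0.69 and did not pass (adjusted p = 0.054, edgeR), and the values for Gins2 and Gins4 were 0.05 and -0.06. Cdt1, the partner of CDC6 in loading, had a value of 0.35 (adjusted p = 0.23).

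In the polymerase group 5 of 13 genes rose, 1 of them a clamp loader gene, and the clamp gene Pcna did not pass. Rfc5 (ENSMUSG00000029363.15, on chromosome 5), a small subunit of the clamp loader, had the smallest p of the list. It was at 11.7, 10.1 and 12.6 CPM in WT and at 19.4, 17.8 and 17.8 CPM in LCH, a log2 rise of 0.68 (SE 0.11, adjusted p = 0.0011, edgeR). The groups were clearly apart, and the lowest LCH library exceeded the highest WT library by more than the range within either group. Lig1, the ligase that seals Okazaki fragments, stood at 29.3, 24.3 and 27.0 CPM in WT and at 41.5, 38.6 and 38.2 CPM in LCH, also without overlap (log2 rise 0.55, SE 0.12, adjusted p = 0.0047, edgeR). Pola1 and Prim1, the catalytic subunits of polymerase alpha and primase that start each new strand, rose by 0.55 and 0.76, and Pole, the leading-strand polymerase, rose by 0.73. Pcna was at 149, 192 and 178 CPM in WT and at 130, 136 and 157 CPM in LCH. Its groups overlapped and its log2 fold change was -0.29 (SE 0.12, adjusted p = 0.085, edgeR). The other clamp loader genes had values of -0.20 for Rfc2, -0.07 for Rfc3 and 0.30 for Rfc4, and none of these passed. Fen1 (0.30), Pola2 (0.22), Pold1 (0.32) and Prim2 (0.28) did not pass either.

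Nucleotide supply and chromatin genes gave further rises. Rrm1, the large subunit of ribonucleotide reductase, was at 61.6, 40.05 and 56.0 CPM in WT and at 94.5, 79.9 and 76.0 CPM in LCH, without overlap (log2 rise 0.67, SE 0.16, adjusted p = 0.0082, edgeR). Tk1, thymidine kinase, rose by 0.59, and Dut, the dUTPase that keeps uracil out of DNA, by 0.42. The small reductase subunit Rrm2 (0.44, adjusted p = 0.19) and thymidylate synthase Tyms (0.42, adjusted p = 0.078) did not pass. Chaf1a, the large subunit of the chromatin assembly factor that places histones behind the fork, was at 16.3, 13.0 and 12.1 CPM in WT and at 23.8, 20.4 and 18.3 CPM in LCH (log2 rise 0.59, SE 0.14, adjusted p = 0.0083, edgeR). Its LCH libraries were all higher than its WT libraries. Chaf1b, its partner subunit, had a value of -0.04, and Uhrf1, which couples DNA methylation to replication, had 0.58 without passing (adjusted p = 0.094).

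The G1/S drivers did not move as a group. Ccne2, one of the cyclin E genes, was at 2.58, 2.36 and 3.80 CPM in WT and at 4.62, 4.73 and 4.73 CPM in LCH, a log2 rise of 0.69 (SE 0.18, adjusted p = 0.016, edgeR). Ccne1, the other cyclin E gene, was at 9.88, 10.01 and 8.73 CPM in WT and at 12.7, 11.4 and 9.42 CPM in LCH, and the groups overlapped (0.23, adjusted p = 0.26). E2f1, an activator E2F, was at 7.10, 10.5 and 11.7 CPM in WT and at 11.7, 12.7 and 10.3 CPM in LCH, again overlapping (0.25, adjusted p = 0.40). E2f2, another activator E2F, was at 4.57, 5.06 and 6.73 CPM in WT and at 5.35, 3.42 and 2.81 CPM in LCH (-0.50, adjusted p = 0.25). Its LCH libraries spread widely, with pool E inside the WT range and the other pools below it.

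**Figure D2:**
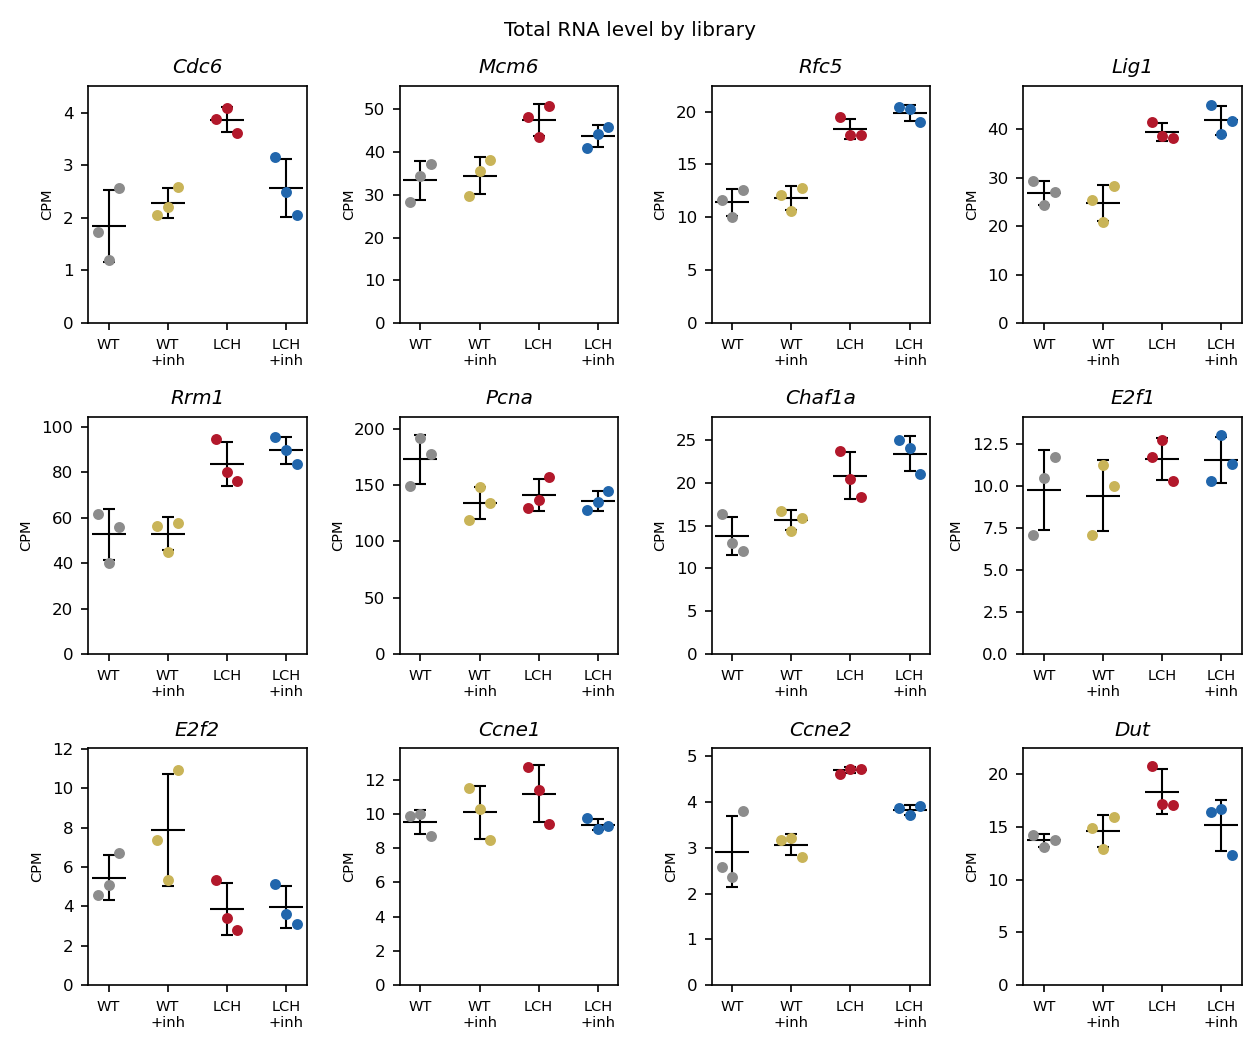
CPM of 12 genes in each total RNA library. Points are libraries, the horizontal bar is the mean and the whisker the SD of 3 libraries; axes start at 0. Cdc6, Mcm6, Rfc5, Lig1, Rrm1, Chaf1a and Ccne2 are separated between WT and LCH without inhibitor, while Pcna, E2f1, E2f2 and Ccne1 overlap.

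How many genes passed rested on single libraries. Leaving out 1 library in turn gave 8 to 18 genes called, with 8 without LCH pool E or without WT pool BD. It gave 10 without LCH pool F or without WT pool C. Calls over all genes tested dropped too, to between 2371 and 3768, against 3975 with all libraries. Within its group, LCH pool E was the highest library for 24 of the 38 genes and pool G the lowest for 25, while WT pool BD was the lowest for 22. Cdc45, Cdc6, Lig1, Mcm6, Pola1, Prim1 and Rfc5 passed in all 6 of these fits, with log2 rises between 0.40 for Mcm6 and 1.38 for Cdc6 at the extremes. Dut passed in 0 of 6. Without LCH pool E the genes that lost their call were Ccne2, Chaf1a, Dut, Gins3, Mcm2, Mcm5, Pole, Rrm1 and Tk1, with log2 values of 0.31 to 0.68. Without WT pool BD they were Ccne2, Chaf1a, Dut, Gins3, Mcm2, Mcm5, Mcm7, Pole and Tk1, with 0.37 to 0.60. Without both pool G libraries 15 genes rose and 1 fell, and that gene was Pcna. A fall of 1 gene was also called without the untreated WT pool A library (17 rose) and without both WT pool A libraries (16 rose).

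RNA of cell type marker genes also differed between the cultures. Summed over 15 neutrophil and granulocyte markers, LCH libraries held 661 to 882 CPM and WT libraries 1751 to 3828 CPM, and 13 of the 15 were called lower in LCH. The 10 eosinophil and basophil markers summed to 16.6 to 53.2 CPM in LCH and 550 to 841 CPM in WT, and all 10 were lower. The 15 dendritic cell markers summed to 17970 to 22230 CPM in LCH and 12690 to 19040 CPM in WT, with 3 called higher in LCH and 1 lower. The 10 macrophage and monocyte markers summed to 7005 to 9182 CPM in LCH and 10440 to 16340 CPM in WT, with 1 higher and 4 lower. The 4 progenitor markers summed to 107 to 150 CPM in LCH and 54.5 to 69.4 CPM in WT, with 2 called higher in LCH and 1 lower. The 5 lymphocyte markers summed to at most 2.70 CPM in LCH and 5.53 CPM in WT. Of all genes tested, 14.8% were called higher in LCH and 14.9% lower. No marker of these lists was at 0 in all libraries of a group without inhibitor. Over the same libraries the 38 replication genes summed to 899 to 996 CPM in LCH and 731 to 813 CPM in WT. Marker sums in bulk RNA do not separate the number of cells from the RNA per cell. The part of cell composition in the rises was not tested.

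Other genes of the same processes, from lists drawn up by function, were counted beside the 38. Of all 13375 genes tested, 14.8% rose and 14.9% fell. Of 40 further replication genes, 15 rose and 1 fell. Among those with the smallest p, Mcm10 rose by 1.24, Ticrr by 0.91, Mtbp by 0.76 and Topbp1 by 0.49, all of which act in origin firing. Rnaseh2a, which removes ribonucleotides from DNA, was the member that fell (-0.37). Of 18 further nucleotide genes 3 rose, near the share of all genes, and 1 fell (Cmpk1 -0.26). Dck (0.60) and Shmt2 (0.57) were among those that rose. Mitotic genes had the highest share, with 25 of 30 higher and 0 lower. Cenpe (1.28), Kif11 (1.18), Ncapg (1.14) and Incenp (1.12), which serve kinetochores, the spindle and chromosome condensation, had the smallest p. Of 27 G1 control genes 9 rose and 4 fell, and the falls were near the share of all genes. Ccnd1, cyclin D1, was at 14.6, 14.1 and 8.99 CPM in WT and at 161, 139 and 146 CPM in LCH, a log2 rise of 3.56 (SE 0.22, adjusted p = 4.45e-06, edgeR). Cdkn2a, a CDK inhibitor gene, rose by 2.37 and Myc by 1.98, while E2f8, a repressor E2F, fell by 1.14. The cyclin D1 difference was thus far larger than that of any of the 38 replication genes.

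Promoter sequence was described as well. The list was drawn up by function, and E2F factors drive this programme, so matches to E2F sites are not independent of that choice. E2F factors bind sites close to TTTGGCGC, and the letters TTTGGCGC, TTTCCCGC, TTTCGCGC and TTTGCCGC were searched on both strands in the 250 bases before each start in RefSeq promoters of GRCm38.p6, which is not the build of the counts. Of the 30 genes on the list with a promoter in that table, 8 held at least one such match (Cdc6, Gins3, Mcm5, Mcm6, Mcm7, Pola1, Rfc3 and Uhrf1). By promoter, that was 22.2% of 36 on the list, against 1.86% of all 32851 promoters and 2.35% of the 21263 protein-coding ones. Of these 8 genes 6 rose in LCH cells without inhibitor, and of the 22 without a match 9 rose, where 14.8% of all genes tested rose. Whether a match goes with a rise was not tested, on the list or outside it. A match describes letters only and shows no binding. The promoters of 4 genes that rose are shown, because they hold the matches in different forms, each as the 170 bases that end just before the start, on the strand of the gene, with the matching bases in capitals. That of Mcm6 lies on the minus strand at chr1:128359706-128359875, that of Mcm5 on the plus strand at chr8:75109339-75109508, that of Pola1 on the minus strand at chrX:93632156-93632325 and that of Gins3 on the plus strand at chr8:95633389-95633558.
Mcm6: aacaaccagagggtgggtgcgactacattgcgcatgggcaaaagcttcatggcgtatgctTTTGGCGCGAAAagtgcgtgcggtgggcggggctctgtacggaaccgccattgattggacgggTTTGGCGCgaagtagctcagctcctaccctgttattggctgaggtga
Mcm5: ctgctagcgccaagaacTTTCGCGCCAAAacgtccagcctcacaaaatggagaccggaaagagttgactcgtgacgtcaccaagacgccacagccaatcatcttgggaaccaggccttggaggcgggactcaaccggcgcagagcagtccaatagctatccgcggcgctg
Pola1: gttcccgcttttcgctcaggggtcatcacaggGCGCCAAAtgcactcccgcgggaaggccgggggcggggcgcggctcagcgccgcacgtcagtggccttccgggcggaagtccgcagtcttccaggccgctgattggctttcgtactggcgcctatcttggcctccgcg
Gins3: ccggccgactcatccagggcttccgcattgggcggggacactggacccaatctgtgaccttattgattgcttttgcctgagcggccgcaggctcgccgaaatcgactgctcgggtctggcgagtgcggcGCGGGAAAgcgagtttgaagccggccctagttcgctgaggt
In Mcm6 and Mcm5 the longer run in capitals is a pair of overlapping matches on opposite strands. In Pola1 and Gins3 the match reads on the opposite strand. The CCAAT box, a common promoter element searched on both strands, was in 52.8% of the promoters on the list and 33.9% of all, and TTTGAA, the letters of the CHR element of mitotic genes, in 13.9% and 15.99%.

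With inhibitor in both genotypes, LCH and WT cells still differed. In that comparison 13 of the 38 genes rose and 1 fell, where 9.27% of the 13375 genes tested rose and 11.1% fell. All LCH libraries lay above all WT libraries for 19 genes and below for 2, against 18% and 19.6% of all genes. Of the 17 genes higher without inhibitor, 10 also passed here, namely Chaf1a, Lig1, Mcm5, Mcm7, Pola1, Pole, Prim1, Rfc5, Rrm1 and Tk1, and Fen1, Gins1 and Tyms joined them. The 10 are 58.8% of the first set and 76.9% of the second. By role, 3 of 13 licensing genes, 6 of 13 polymerase genes and 3 of 5 nucleotide genes rose.

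Rfc5 again had the smallest p, at 12.1, 10.6 and 12.8 CPM in WT and 20.4, 20.2 and 19.0 CPM in LCH (log2 rise 0.75, SE 0.11, adjusted p = 0.00090, edgeR). Lig1 rose by 0.75, from 25.5, 20.8 and 28.2 CPM to 45.0, 39.0 and 41.8 CPM. Rrm1 rose by 0.76 and Pola1 by 0.63. In each of these 4 genes every LCH library was above every WT library. Cdc6, at 2.05, 2.21 and 2.59 CPM in WT and 3.16, 2.49 and 2.05 CPM in LCH, overlapped (0.17, adjusted p = 0.70). E2f2 was the gene that fell, at 7.38, 5.32 and 10.9 CPM in WT and 5.16, 3.61 and 3.11 CPM in LCH (-0.99, SE 0.31, adjusted p = 0.044, edgeR). Ccne2 (0.32), Ccne1 (-0.11) and E2f1 (0.29) did not pass. Leaving out 1 library gave 5 to 12 genes called, with 5 without LCH pool F, 6 without LCH pool E or WT pool BD and 8 without WT pool A or C. Over all genes tested these fits called 1470 to 2368, against 1240 higher and 1478 lower with all libraries. Lig1, Mcm7, Pola1, Rfc5 and Rrm1 passed in all 6 fits, and Gins1 and Pole in 0. E2f2 lost its call without LCH pool F, LCH pool G, WT pool A or WT pool C, with log2 values between -1.24 and -0.68 over the fits.

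The other lists stood as follows in the cultures with inhibitor. Of all 13375 genes tested, 9.27% rose and 11.1% fell. Of 30 mitotic genes 19 rose and 0 fell. Of 40 further replication genes 4 rose and 1 fell, so their rises were near the share of all genes. Of 18 nucleotide genes 4 rose and 1 fell, and of 27 G1 control genes 4 rose and 5 fell. The summed neutrophil and granulocyte markers were 558 to 766 CPM in LCH and 2518 to 5075 CPM in WT, with 14 of 15 called lower, and their part in these values was likewise not tested.

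**Figure D3:**
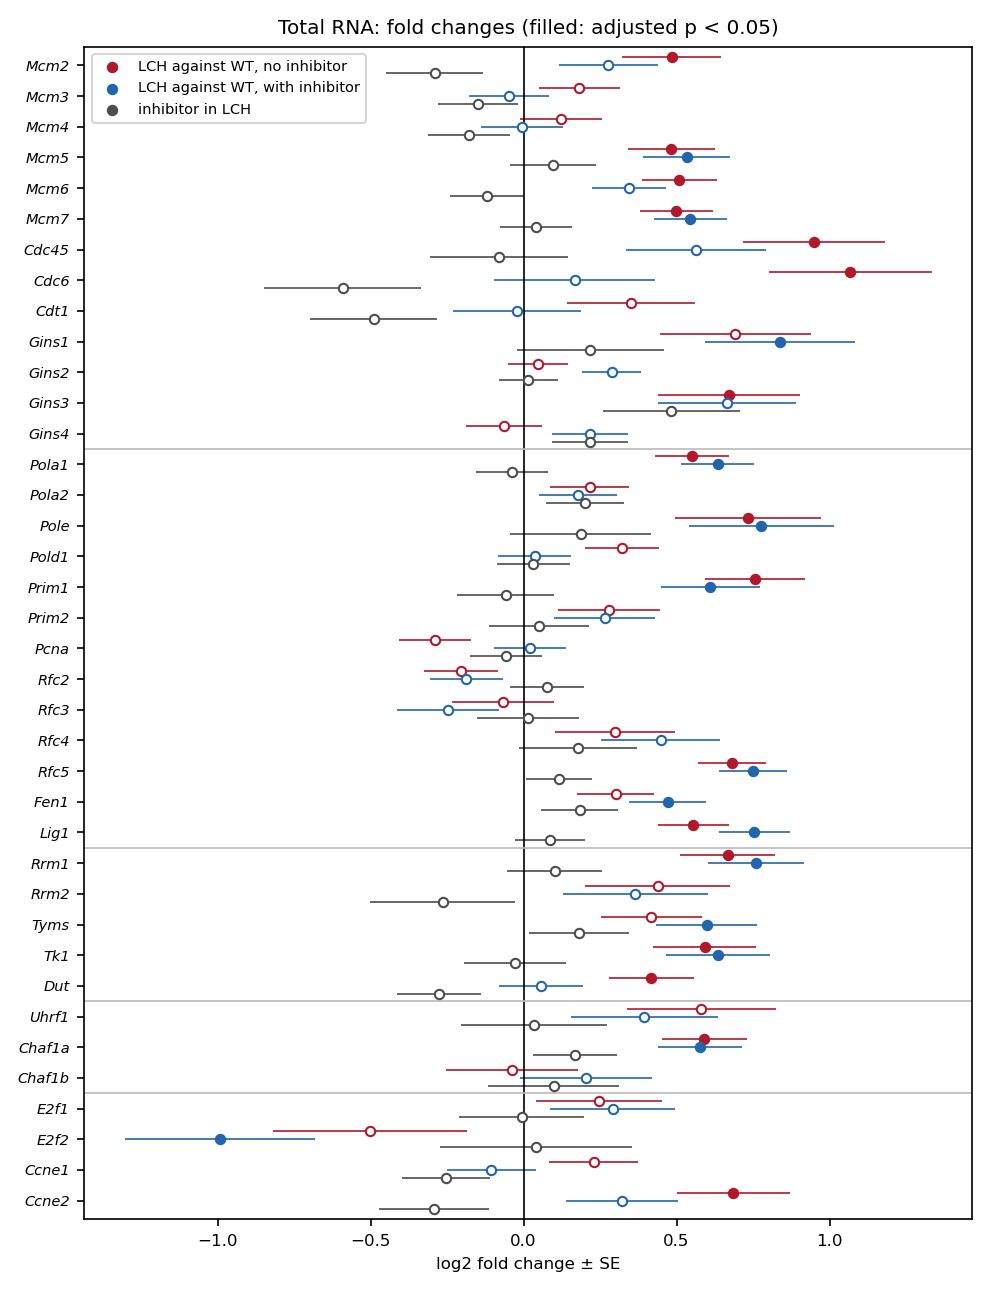
Log2 fold changes with their SE for the 38 genes in total RNA, for LCH against WT without inhibitor (red), LCH against WT with inhibitor (blue) and the inhibitor in LCH cells (grey); filled points passed at an adjusted p under 0.05. Red and blue points lie mostly right of 0, and 0 of the 38 grey points are filled. The fit does not pair libraries by pool.

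The inhibitor was next compared with no inhibitor within each genotype, which asks whether its effect reaches the replication genes by the end of the LPS stimulation. In LCH cells 0 of the 38 genes passed in total RNA, where 0.74% of 13375 genes tested were called in edgeR. An unadjusted p under 0.05 was reached by 2 of the 38 (Cdc6 and Cdt1), and DESeq2 called 0. Log2 fold changes ran from -0.59 to 0.48. This comparison shares its untreated LCH libraries with the comparison of LCH against WT without inhibitor, so the values are set side by side only. Cdc6 went from 3.89 to 3.16 CPM in pool E, from 4.10 to 2.49 in pool F and from 3.62 to 2.05 in pool G (-0.59, SE 0.26, adjusted p = 0.45, edgeR). Cdt1 went from 14.2, 15.3 and 18.2 CPM to 10.6, 10.8 and 12.7 CPM in the same pools (-0.49, adjusted p = 0.42). Both genes were thus lower with inhibitor in 3 of 3 LCH pools, without passing in this fit, which does not pair libraries by pool. Of the 38 genes, 10 were lower and 12 higher in all 3 LCH pools.

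In LCH total RNA, deviations of same-pool libraries from their group means correlated by 0.532 to 0.808 between inhibitor states. Pools E and F also correlated with each other, by 0.441 and 0.405. With the pool as a replicate block 4 of the 38 genes fell in LCH cells. In that edgeR fit 9.21% of all genes tested fell, so the share of the list was near that of all genes. The 4 genes were Cdt1 (-0.49, adjusted p = 0.0020), Mcm2 (-0.29, adjusted p = 0.016), Rrm2 (-0.27, adjusted p = 0.019) and Dut (-0.28, adjusted p = 0.038). Each was lower in all 3 pools, at 24.8, 23.5 and 20.7 CPM without and 20.6, 18.8 and 17.0 CPM with inhibitor for Mcm2. In WT cells 0 of the 38 passed, against 0.71% of all genes tested; 3 had an unadjusted p under 0.05 (Pcna, Gins2 and Pold1) and DESeq2 called 0. With the pool as a block 4 passed in WT, a smaller share than the 21.7% of all genes tested that passed. Of these 4, Pcna was lower (-0.37, adjusted p = 0.00014, edgeR), and E2f2 (0.50), Pola2 (0.24) and Pold1 (0.32) were higher. Pcna in WT went from 149 to 119 CPM in pool A, from 192 to 148 in pool BD and from 178 to 134 in pool C.

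The difference of the inhibitor effect between the genotypes was tested as an interaction, and 0 of the 38 genes passed, against 0.404% of all genes tested. Only Cdc6 of the 38 had an unadjusted p under 0.05 (-0.90), and DESeq2 called 0. With the pool as a block 2 passed, against 19.7% of all genes tested, namely Cdc6 (-0.95, adjusted p = 0.041) and Pcna (0.31, adjusted p = 0.0078). Among the wider lists, the inhibitor lowered 3 of the 27 G1 control genes in LCH cells and 0 of the further replication, nucleotide and mitotic genes. In that LCH comparison 0.74% of all genes tested were called, in either direction. Ccnd1 went from 161, 139 and 146 CPM to 37.6, 40.7 and 39.5 CPM in LCH (-1.92, adjusted p = 0.0017, edgeR), while its WT values with inhibitor were 14.9, 13.5 and 8.45 CPM. Myc fell by 1.72 and Ccnd3, cyclin D3, by 1.41. For cyclin D1 the treated LCH cells stayed above the WT range.

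Loading on ribosomes was compared in LCH cells, where polysome and total RNA with the same pool letter and treatment were taken as 1 culture and set side by side. Levels here were scaled over both fractions together, so CPM values differ from those above. Without inhibitor 11 of the 38 genes were higher in polysome than in total RNA and 1 was lower, where 14.8% of 14816 genes tested were higher and 14.6% lower. The median log2 difference was 0.30 over the list and -0.26 over all genes tested. With inhibitor 9 were higher and 2 lower, against 12.9% and 17.2% of all genes, with medians of 0.30 and -0.24. Chaf1a, Dut, E2f1, Fen1, Lig1, Pcna, Rfc2 and Rrm2 were higher in both states, and Mcm5 was lower in both. The scaling shifts all genes alike. The median of all genes was -0.38 without inhibitor when the rRNA-type genes were left out, and -0.11 with inhibitor under DESeq2 size factors.

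**Figure D4:**
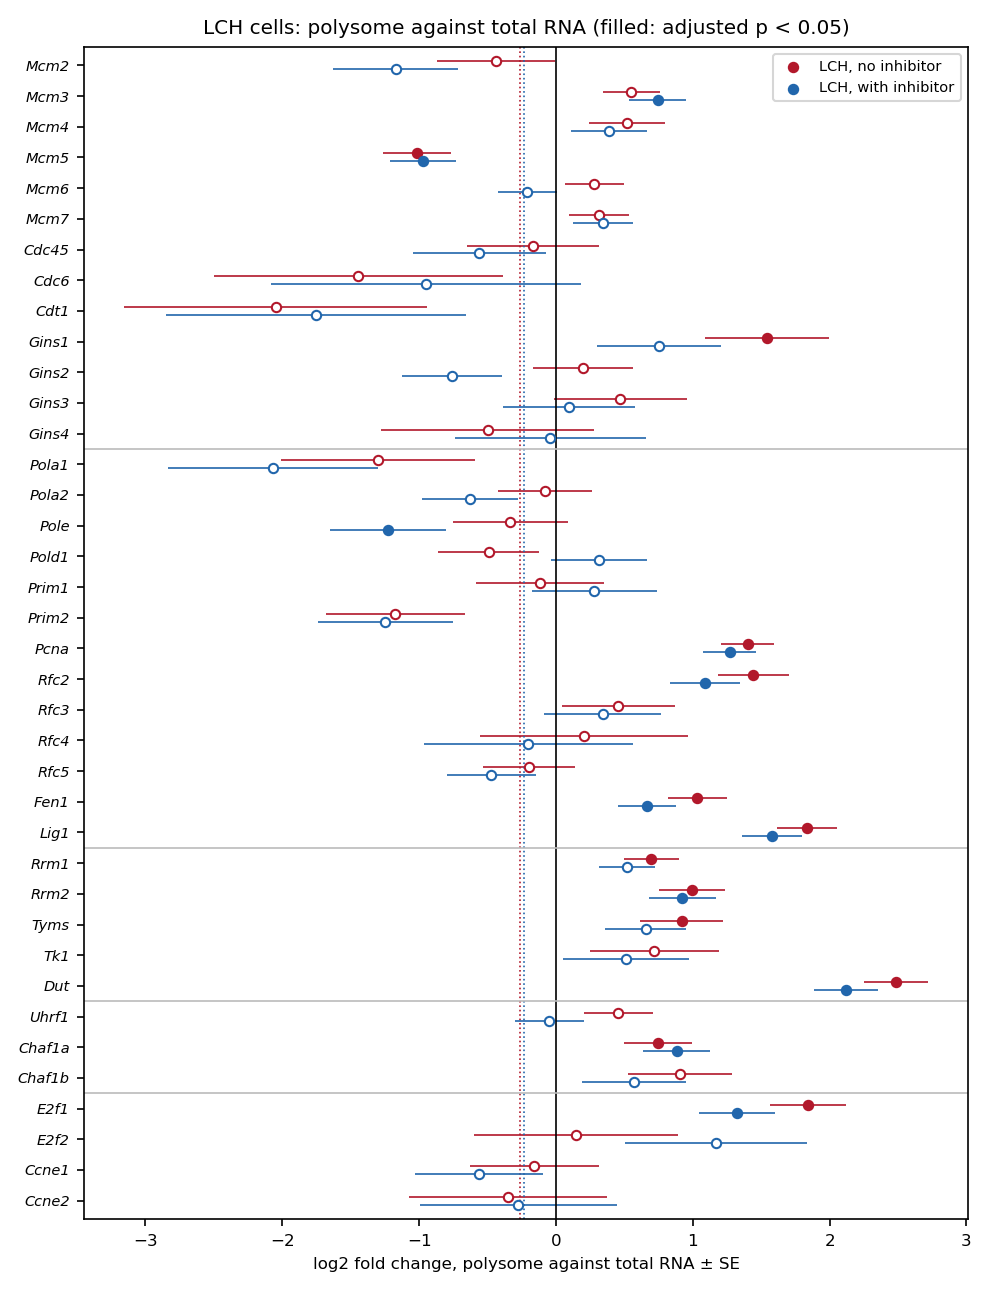
Log2 difference of polysome against total RNA in LCH cells with its SE, without (red) and with inhibitor (blue), each fitted over 3 cultures with the culture as a block; filled points passed at an adjusted p under 0.05. Dotted lines mark the medians of all genes tested, -0.26 and -0.24. Dut, Lig1, E2f1, Pcna and Rfc2 lie farthest right among the filled points of both states, and Mcm5 lies left of 0 in both.

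Nucleotide supply genes were the group with the largest share, 4 of 5 without inhibitor and 2 of 5 with it. Dut (ENSMUSG00000027203.16, on chromosome 2) stood at 13.9, 11.5 and 11.6 CPM in total RNA and at 73.7, 72.8 and 59.9 CPM in polysome RNA of pools E, F and G (log2 difference 2.48, SE 0.23, adjusted p = 2.51e-07, edgeR). With inhibitor it went from 10.9, 10.98 and 8.23 CPM to 65.1, 39.0 and 31.6 CPM (2.12). The ratio lay between 3.56 and 6.35 over the 6 cultures. Rrm2 went from 30.6, 23.6 and 19.6 CPM to 65.7, 53.4 and 31.9 CPM without inhibitor (0.99, adjusted p = 0.0041, edgeR), and its ratio ranged from 1.21 to 2.69 over the 6 cultures. Rrm1 (0.70) and Tyms (0.92) passed without inhibitor, although Tyms in pool F was at 21.1 CPM in total and 19.7 CPM in polysome RNA. Tk1 (0.72, adjusted p = 0.30) did not pass.

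Of 13 polymerase and clamp genes, 4 were higher in polysome RNA and 0 lower without inhibitor, and 4 higher and 1 lower with it. Lig1 was at 27.6, 25.7 and 25.9 CPM in total and 92.6, 121 and 74.3 CPM in polysome RNA without inhibitor (1.83, SE 0.22, adjusted p = 4.31e-06, edgeR). Pcna, the clamp that was not higher in LCH total RNA, went from 86.5, 90.8 and 106 CPM to 246, 222 and 283 CPM (1.40, SE 0.19, adjusted p = 1.93e-05, edgeR). In both genes every polysome library exceeded every total RNA library. Rfc2 (1.44) and Fen1 (1.03) were higher too. Pole, the leading-strand polymerase, had a difference of -0.33 without inhibitor (adjusted p = 0.64) and -1.23 with it (adjusted p = 0.035, edgeR), where it went from 9.21, 7.28 and 8.55 CPM to 4.11, 3.85 and 2.83 CPM. The Pole call was lost with DESeq2 size factors, without any single culture of pool E or pool G, and without both pool G libraries. Pola1 and Prim2 were lower in polysome RNA in all 6 cultures, with differences of -1.30 and -1.17 that did not pass without inhibitor. Pola1 had 0 counts in the treated pool F polysome library, where 3 counts would be 0.525 CPM.

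Of 13 licensing genes 1 was higher and 1 lower in polysome RNA in each state, smaller shares than those of all genes tested. Those were 14.8% higher and 14.6% lower without inhibitor, and 12.9% and 17.2% with it. Mcm5 was at 43.4, 37.97 and 35.6 CPM in total and 21.9, 12.4 and 24.8 CPM in polysome RNA without inhibitor (-1.02, SE 0.25, adjusted p = 0.0040, edgeR), and its ratio stayed between 0.328 and 0.696 over the 6 cultures. Mcm3, a partner in the same ring, had ratios of 1.16 to 1.97 and passed with inhibitor (0.74, adjusted p = 0.010, edgeR). The Mcm3 call was lost without the low-count filter and without either culture of pool E. Gins1 passed without inhibitor (1.54), with ratios of 1.09 to 3.18. Cdt1 was lower in polysome RNA in all 6 cultures and had 0 counts in both pool F polysome libraries, where 3 counts would be 0.778 and 0.525 CPM, and it did not pass (-2.05, SE 1.11, adjusted p = 0.24, without inhibitor).

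E2f1 was the G1/S driver with a polysome difference. It was at 7.80, 8.48 and 6.95 CPM in total and 26.8, 32.9 and 24.1 CPM in polysome RNA without inhibitor (1.84, SE 0.28, adjusted p = 5.54e-05, edgeR), and at 6.81, 8.52 and 7.50 against 22.4, 17.7 and 17.0 CPM with it (1.32). All 6 cultures had more E2f1 in polysome RNA. E2f2, Ccne1 and Ccne2 had differences of 0.14, -0.16 and -0.35 without inhibitor and did not pass. Chaf1a (0.75) and its partner Chaf1b (0.91, adjusted p = 0.086) were higher in all 6 cultures, of which Chaf1a passed.

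**Figure D5:**
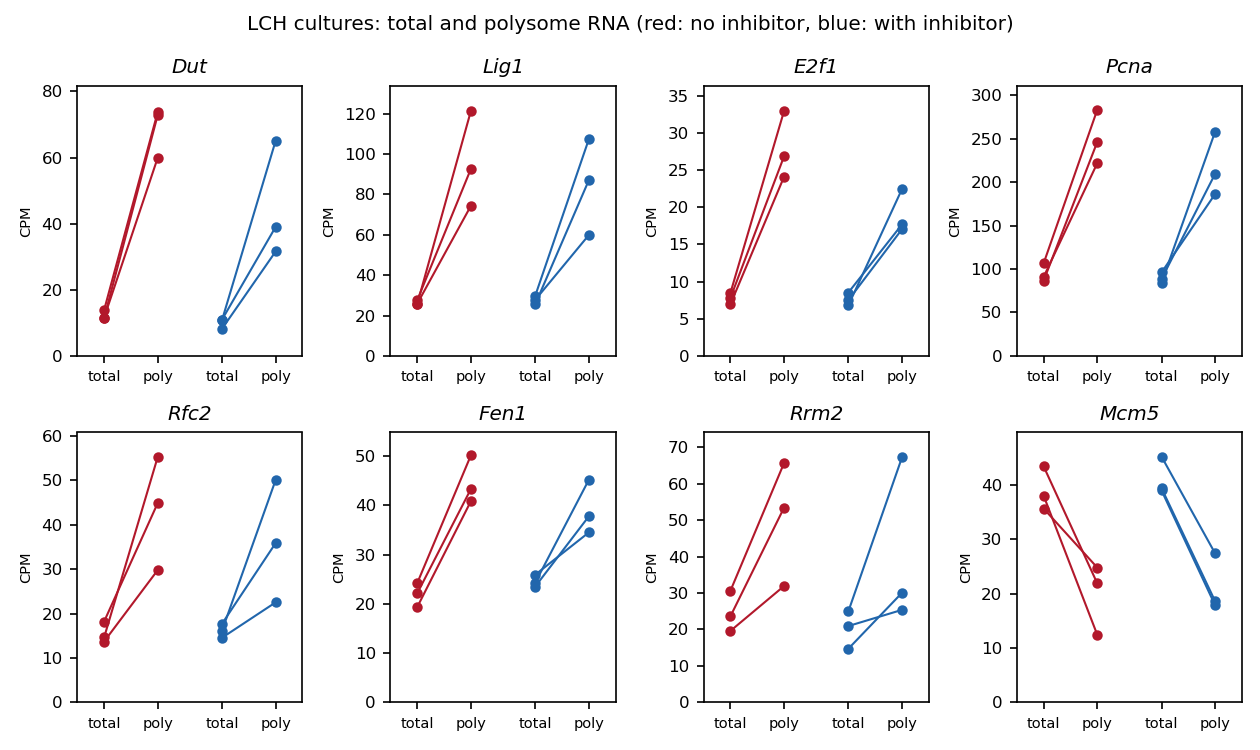
CPM of 8 genes in total and polysome RNA of each LCH culture; a line joins the 2 fractions of a culture, red without and blue with inhibitor, and axes start at 0. All lines go up for Dut, Lig1, E2f1, Pcna, Rfc2, Fen1 and Rrm2, and all go down for Mcm5.

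No difference in loading between treated and untreated LCH cells passed the test. In the interaction of fraction and inhibitor 0 of 38 passed in edgeR, with 0 at an unadjusted p under 0.05 and 0 in DESeq2; 0% of all 14816 genes passed. In polysome RNA alone, 0 of 38 passed for the inhibitor in LCH, with 0 at an unadjusted p under 0.05 and 0 in DESeq2, and 0% of 10757 genes passed. The standard errors of the loading interaction ran from 0.27 to 1.58 on the log2 scale, so only large changes were detectable at this depth.

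Leaving out 1 culture gave 8 to 14 genes called without inhibitor and 7 to 15 with it, where 7 were left without the treated culture of pool E. Over all genes tested these fits called 3160 to 5311 without inhibitor and 3067 to 5356 with it. Without inhibitor the 11 higher and 1 lower became 6 and 2 without the untreated culture of pool E, and 7 and 1 without that of pool G. With inhibitor the 9 higher and 2 lower became 8 and 7 without the untreated culture of pool F, 6 and 4 without that of pool E, and 5 and 2 without the treated culture of pool E. Dut, E2f1, Fen1, Lig1, Mcm5, Pcna and Rfc2 passed in all 6 fits without inhibitor, and Dut, E2f1, Lig1, Mcm5 and Pcna with it. Without the untreated culture of pool E, Chaf1a, Gins1, Rrm1, Rrm2 and Tyms lost their call, with log2 differences of 0.64 to 1.46. Pool F polysome libraries held the largest rRNA-type shares among LCH libraries, 65.1% and 60.7%, against 18 to 40.9% in the others. The genomic span of a gene model and its polysome difference had a Spearman rho of -0.15 over the 38 genes and -0.27 over all genes tested without inhibitor, a description across genes of the same libraries. Of 40 further replication genes 9 were higher and 2 lower in polysome RNA without inhibitor, against 14.8% and 14.6% of all genes tested. Nasp (1.95), Gmnn (2.26), Rpa2 (2.13) and Rnaseh2a (2.06) had the smallest p.

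Polysome RNA of WT cells was too shallow to set against that of LCH cells for these genes. WT polysome libraries without inhibitor held 24065 to 1171450 counts outside the rRNA-type genes, and 4 to 10 of the 38 genes had a count in each. Over the group they gave 493 counts on the list, against 26045 in LCH, and 20 of the 38 genes were at 0 in all 3 WT libraries. With inhibitor the WT libraries gave 169 counts, and 30 genes were at 0 in all 3. In edgeR 17 of 37 genes tested were higher in LCH and 0 lower, where 21.4% of 9902 genes were higher and 0.717% lower. The count of calls was 5 in DESeq2, in which 16 of the 37 had no adjusted p, and 0 without both pool G libraries. Over all genes tested, 2191 were called in edgeR, 1076 in DESeq2 and 0 without both pool G libraries. No fold change is given for this comparison, since the WT values are mostly zeros, and differences in loading between the genotypes were not detectable at this depth.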

How the data were processed

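The authors deposited raw counts per gene model, made with Salmon per the submitters' processing notes, which also name DESeq2 and the build mm9 and give no versions. The files name no build, so no coordinates of theirs are printed. The authors' other deposited tables were not used. Columns were matched to groups by the genotype, inhibitor and fraction in their names, and pools G and GH were taken as the same pool.

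The tests were run in R 4.3.3 with edgeR 4.0.16 (quasi-likelihood, robust, TMM, filterByExpr with a minimum count of 10), with two-sided p-values, a Benjamini-Hochberg adjustment across every gene in the fit and a threshold of 0.05. The 12 total RNA libraries shared a fit, as did the LCH polysome libraries, all polysome libraries, and both fractions of LCH with the culture as a block. Fold changes are log2, with the SE from the test statistic, and CPM uses TMM library sizes. The tests were checked on simulated counts. Alternatives were DESeq2 1.42.0, its size factors, no low-count filter, pool blocks, 4 rRNA-type genes left out (mt-Rnr1, mt-Rnr2, Rn18s and Lars2), and single libraries left out. Leaving out pool G or pool A was added after seeing the data.

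Pairing by pool rests on the letters in the column names, which no label explains. Deviations of same-pool libraries from their group means correlated by 0.678, 0.532 and 0.808 between inhibitor states in LCH total RNA, and by 0.627, 0.602 and 0.237 in WT. They correlated by 0.283, 0.331 and 0.491 in LCH polysome RNA, and by 0.168 to 0.753 between fractions, all over 0.1. Different pools also reached this level: pools E and F correlated by 0.441 and 0.405 between inhibitor states in LCH total RNA. Pool F total RNA correlated more with pool E polysome RNA (0.28 without and 0.551 with inhibitor) than with its own (0.168 and 0.336). No libraries agreed within sampling noise.

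The 38 genes and all lists were chosen with earlier results of these data known. Genes given in every library are those with the smallest p in each role, all G1/S drivers, and further genes chosen after their values were seen. Of the other lists up to 4 with the smallest p are named, and a few more were chosen after their values were seen. A gene of the nucleotide list is counted but not reported here by name. Anota2seq, named in the series' design, was not used. Precision rests on 3 libraries a group. Limits from 3 counts cover counting error only.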

Additional observations from a re-analysis of the deposited data

Results flagged for a closer look

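The inhibitor effect on Cdc6 and on Pcna in total RNA differed between the genotypes in the interaction test with the pool as a replicate block (edgeR). In that fit 19.7% of all 13375 genes tested passed, and 2 of the 38 did, against 0.404% of all genes without the block. For Cdc6 the effect in LCH minus that in WT was -0.95 on the log2 scale (SE 0.31, adjusted p = 0.041). By pool, the log2 ratio of treated to untreated Cdc6 was -0.30, -0.72 and -0.82 in LCH and 0.24, 0.87 and 0.01 in WT. For Pcna the difference was 0.31 (SE 0.076, adjusted p = 0.0078), with pool ratios of -0.03, -0.01 and -0.12 in LCH and -0.32, -0.37 and -0.41 in WT. Without the block the adjusted p was 0.37 for Cdc6 and 0.50 for Pcna.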

How the results depend on the processing

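No result that passed changed its direction under the alternatives run. With the pool as a replicate block, the count of the 38 genes called moved from 0 to 4 for the inhibitor in LCH total RNA, from 0 to 4 in WT total RNA and from 0 to 2 for the interaction, while the block changed no call for the inhibitor in LCH polysome RNA. Without the culture block 12 and 11 genes were called between polysome and total RNA, as with it, though 2 single calls were lost. No paired analysis was possible between genotypes because WT and LCH share no pool and the columns carry no replicate numbers. LCH against WT in polysome RNA was the least stable count. It moved from 17 to 5 in DESeq2 and 9 with DESeq2 size factors (1243 of all genes higher and 219 lower, against 2120 and 71). It was 3 without a low-count filter and 0 without both pool G libraries. Calls over all genes tested moved from 2191 to 1076 in DESeq2, 921 without that filter and 0 without both pool G libraries. The cause was not tested. Leaving out single libraries gave 8 to 18 calls for LCH against WT without inhibitor, 5 to 12 with inhibitor and 12 to 20 in polysome RNA. For polysome against total RNA it gave 8 to 14 without and 7 to 15 with inhibitor. In the same order, calls over all genes tested were 2371 to 3768, 1470 to 2368, 1662 to 2701, 3160 to 5311 and 3067 to 5356. Without a low-count filter the polysome comparison gave 7 higher and 3 lower without inhibitor and 5 higher and 7 lower with it. Depth limits the WT polysome libraries most.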
